A study of Mus musculus with 6 samples.

Results

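The EphA receptors and ephrin-A ligands are the A-class branch of the Eph family of cell contact signals. The deposited table was searched for 10 gene symbols of this branch, the receptors Epha3, Epha4, Epha5, Epha6, Epha7, Epha8 and Epha10 and the ligands Efna2, Efna3 and Efna5. Each symbol matched 1 row, giving 10 of the 23016 rows, 7 receptors and 3 ligands. The libraries came from dissected cerebral cortex of mice at postnatal day 0 (the day of birth), 3 wild type (Fezf2+/+) and 3 Fezf2 KO (Fezf2-/-) pups from crosses between heterozygous Fezf2+/- parents, with 1 library of total RNA per brain. Replicates 1 and 2 of each genotype came from litter m1 and replicate 3 from litter m2. No drug, Cre line or transgene is named in the labels, and the part of Fezf2 that the KO allele lacks, the strain and the sex of the pups are not given in the sources used here.

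Ephrin-As are held at the outer cell surface by a lipid (GPI) anchor and bind EphA receptor tyrosine kinases on a touching cell. Binding starts forward signalling in the receptor's cell, which commonly makes a growth cone retract, and reverse signalling in the ligand's cell. In the developing forebrain, graded EphA and ephrin-A levels order topographic maps, among them the projection from thalamus to cortex, and EphA4 steers corticospinal axons. Fezf2 is a transcriptional regulator with zinc fingers that deep-layer neurons of the cortex express, and the comparison asks which transcripts differ in newborn cortex without it.

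Values are normalised read counts, that is, reads that the authors scaled by a factor for each library and not by gene length. The recovered depth was 44978380 to 52872577 reads per library, at which 1 read was worth 0.812 to 0.936 units. Fezf2 itself read 5030 to 5928 in wild type and 1377 to 1989 in Fezf2 KO libraries. Tbr1, a transcription factor that marks deep-layer cortical projection neurons, read 10058 to 13929 across the libraries, so the labelled tissue was present in each. Other tissue was present unevenly. The summed value of 6 choroid plexus genes was 9745 in Fezf2 KO 1 and 65.3 to 137 in the other libraries, and that of 6 meningeal genes was 5312 in wild type 1 and 705 to 1164 in the others. The 14 striatal rows summed to 27877 to 31997 in wild type and 21050 to 27100 in Fezf2 KO. That sum is weighted to abundant rows such as Meis2 (8475 to 11583 across the libraries). Row by row, 13 of the 14 were fitted lower in Fezf2 KO and 1 higher, with a median log2 change of -1.18. None of these rows was at 0 in any library. In bulk tissue fewer cells of a type and less RNA per cell cannot be told apart.

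Epha3 had the highest fitted change of the 10, at 1.41 times the wild type value. Efna5 and Epha8 had the lowest, at 0.863 and 0.875 times, and the remaining members lay between 0.890 and 1.08 times. Change was tested with limma on log2(value + 1) over 17557 genes, with a Benjamini-Hochberg adjusted p under 0.05 as the threshold. By that test 0 of the 10 members changed, where 0.712% of all genes tested did (125 genes). At an unadjusted p under 0.05, 1 member was higher and 2 were lower, against 4.66% and 4.37% of all genes (9.03% in either direction). EdgeR on the recovered reads called 0 of the 10 (0.689% of all genes). DESeq2 called 1, Epha3 (2.3% of all genes, 1.38% in the higher direction), and limma with litter as a block also called 1, Epha3 (0.786% of all genes, 0.421% in the higher direction). The 10 fitted changes were 5 higher and 5 lower, with a median log2 of -0.0024, against 0.0025 over all genes tested.

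**Figure D1:**
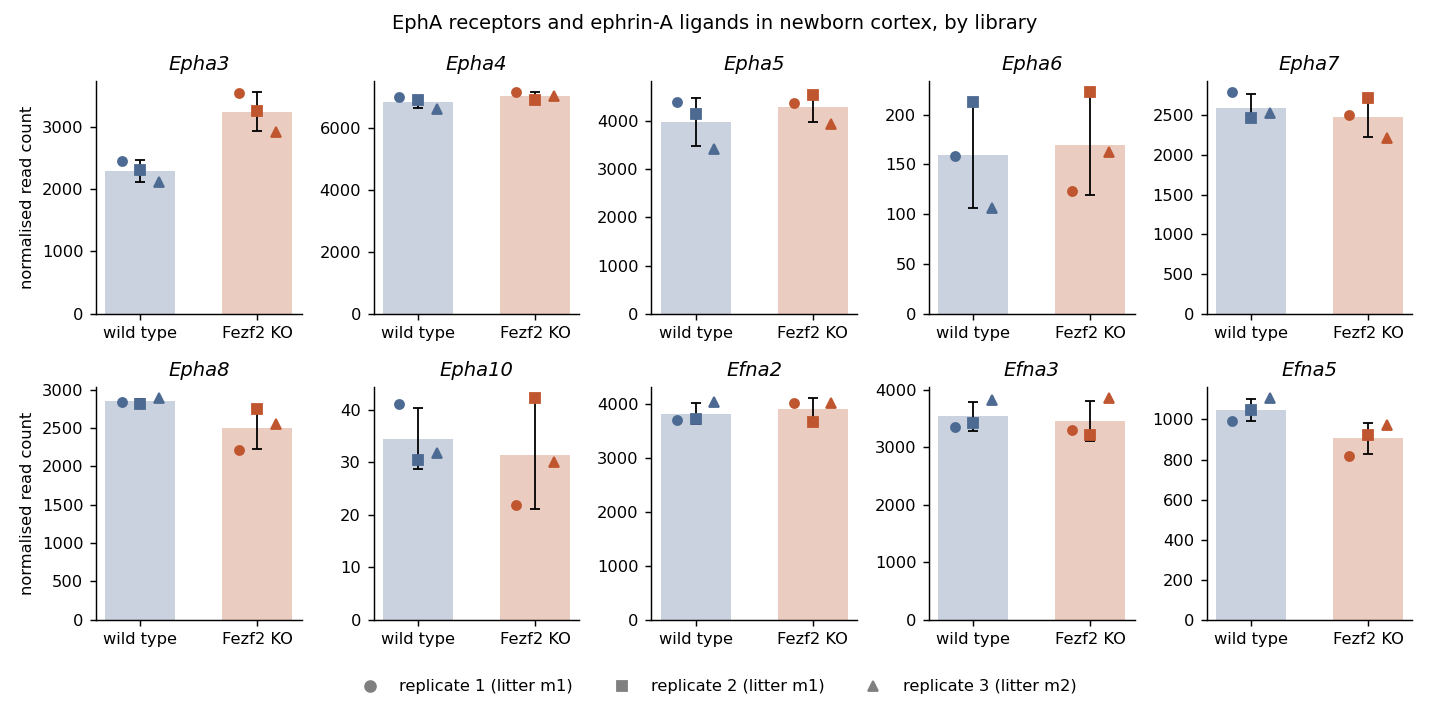
Normalised read count (y axis, from 0) of each of the 10 genes in wild type and Fezf2 KO cortex. Points are libraries, with their shape giving the replicate and litter, bars are means and whiskers are SD (n = 3). Epha3 points of Fezf2 KO (2925 to 3555) sit above all wild type points (2111 to 2452), while those of Efna5 and Epha8 sit below.

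The receptor Epha3 (kgCluster9734 in the table, chromosome 16), which binds ephrin-A5 with high affinity, read 2452, 2317 and 2111 in wild type 1, 2 and 3, against 3555, 3264 and 2925 in Fezf2 KO 1, 2 and 3. All 3 Fezf2 KO libraries lay above all 3 wild type libraries, and in each genotype the library of litter m2 was the lowest. The means were 2294 ± 172 (SD, n = 3) in wild type and 3248 ± 315 in Fezf2 KO. The log2 change was 0.50 (SE 0.086, 95% interval 0.30 to 0.70, limma adjusted p = 0.0510). By p, Epha3 was gene 126 of 17557, directly after the 125 genes that passed. A change of larger size in either direction was fitted to 5.35% of the genes tested.

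Litter is the one shared factor that the labels give, and taking it as a block left the log2 change of Epha3 at 0.50 with an SE of 0.056 and a limma adjusted p of 0.0133. Within litter m1 (2 libraries per genotype) the log2 difference was 0.51, and within litter m2 (1 library per genotype) it was 0.47. DESeq2 gave an adjusted p of 2.91e-05 and edgeR one of 0.0577 for an equal log2 change of 0.50. Leaving out 1 library at a time moved the estimate between 0.43 and 0.57, and limma's adjusted p between 0.0541 and 0.161. The call of Epha3 thus differed between tests, and its direction did not.

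**Figure D2:**
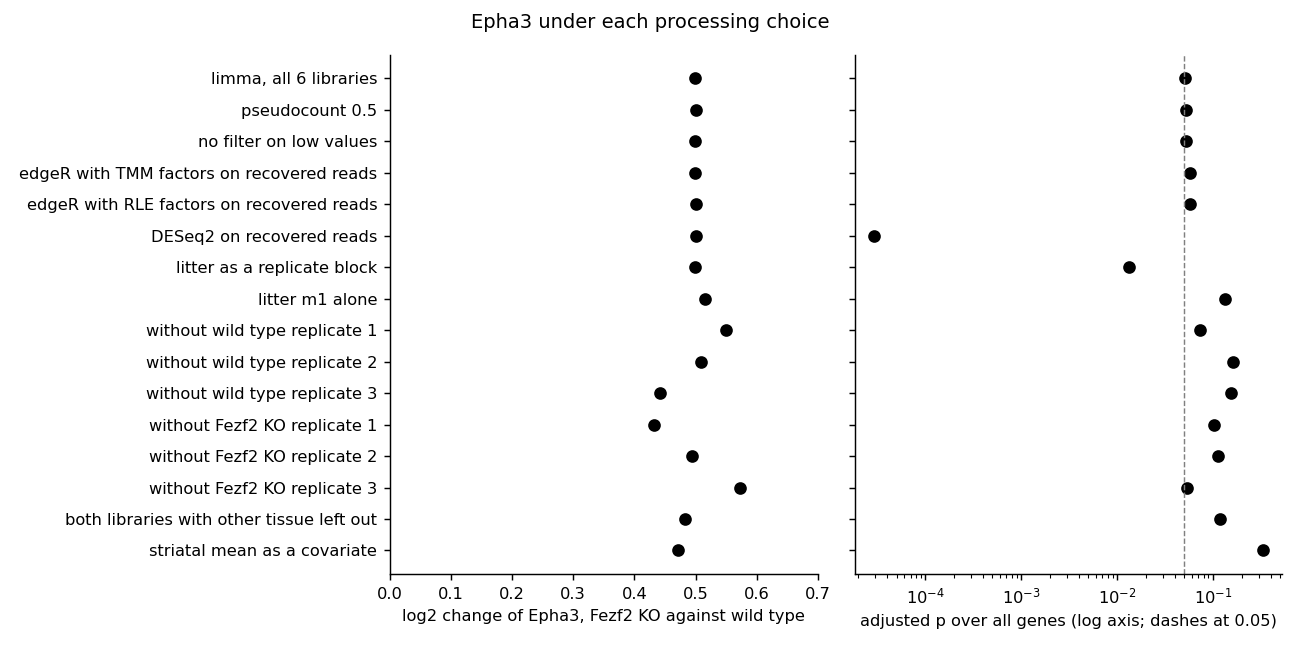
Log2 change of Epha3 (left, Fezf2 KO against wild type) and its adjusted p over all genes (right, log axis, dashes at 0.05) under each processing choice. The estimates lie between 0.43 and 0.57, and the adjusted p is under 0.05 with DESeq2 and with litter as a block, and from 0.0510 to 0.334 elsewhere.

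The other receptors had smaller differences. Epha4 (kgCluster491, chromosome 1), which binds ephrin-Bs as well as ephrin-As, had the most reads of the 10 and the smallest standard error of the log2 change (0.044). It read 7012, 6903 and 6614 in wild type against 7157, 6890 and 7029 in Fezf2 KO, and the genotypes overlapped. Its log2 change was 0.04, and the 95% interval of the difference ran from -4.33% to 10.2% of the wild type value.

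Epha5 (kgCluster19071, chromosome 5), a receptor of retinal and hippocampal axon mapping, read 4387, 4144 and 3431 in wild type against 4381, 4548 and 3942 in Fezf2 KO. Its libraries overlapped between genotypes, and in both the litter m2 library was the lowest. The log2 change was 0.11 (95% interval -0.11 to 0.33). Epha7 (kgCluster16928, chromosome 4), a receptor expressed in graded and layered patterns in cortex, read 2791, 2462 and 2533 in wild type against 2501, 2713 and 2207 in Fezf2 KO. Its log2 change was -0.07 (95% interval -0.27 to 0.13), again with overlapping libraries.

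Epha8 (kgCluster18206, chromosome 4), a receptor best known from the midbrain, read 2840, 2819 and 2890 in wild type against 2210, 2749 and 2553 in Fezf2 KO. The coefficient of variation was 1.28% among wild type and 10.9% among Fezf2 KO libraries, and all 3 Fezf2 KO libraries were below wild type. Sampling of reads alone would give 1.77% and 1.86%, so the 3 wild type libraries were closer together than that sampling gives. The log2 change was -0.19 (SE 0.080, 95% interval -0.38 to -0.0076, limma adjusted p = 0.524), which did not pass.

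Epha6 and Epha10 were the scarce receptors. Epha6 (kgCluster9728, chromosome 16), found in a gradient across the retina, read 107 to 213 in wild type and 123 to 223 in Fezf2 KO. Epha10 (kgCluster17957, chromosome 4), whose kinase domain lacks residues needed for catalysis, read 30.5 to 41.2 and 21.9 to 42.2. Coefficients of variation reached 33.4% for Epha6 and 32.5% for Epha10, the widest of the 10. The 95% intervals ran from -0.55 to 0.76 for Epha6 and from -0.79 to 0.45 for Epha10 on the log2 scale, each wide enough to hold a change of the size of Epha3's in at least 1 direction. An assembled transcript antisense to Epha10 read 0.81 to 4.49, and no source used here gives the strand.

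Of the ligands, Efna5 (kgCluster11215, chromosome 17), which shapes thalamocortical and retinotectal maps, had the lowest fitted change of the 10. It read 995, 1046 and 1106 in wild type against 820, 925 and 973 in Fezf2 KO. The highest Fezf2 KO library, that of litter m2, was below the lowest wild type library. Means were 1049 ± 55.7 and 906 ± 78.3 (SD, n = 3 each), with a log2 change of -0.21 (SE 0.085, 95% interval -0.41 to -0.017, limma adjusted p = 0.492). It did not pass, nor did it with litter blocked (limma adjusted p = 0.357).

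Efna2 (kgCluster2147, chromosome 10), a ligand of the midbrain target of retinal axons, read 3700, 3710 and 4032 in wild type against 4017, 3661 and 4011 in Fezf2 KO. Its 95% interval ran from -7.26% to 12.5% of the wild type value. Efna3 (kgCluster16129, chromosome 3), a ligand that astrocytes present to EphA4 on hippocampal dendrites, read 3355, 3428 and 3831 in wild type against 3300, 3219 and 3854 in Fezf2 KO. Its interval ran from -14.5% to 11.4%, and the libraries of both ligands overlapped between genotypes. An assembled transcript antisense to Efna3 read between 29.0% and 31.1% of Efna3 in each of the 6 libraries. Without strand, reads of this pair cannot be told apart, and the level of Efna3 is uncertain to that extent.

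Over the 10 genes, libraries of the genotypes did not overlap for 1 higher gene (Epha3) and 2 lower genes (Epha8 and Efna5). Among all genes tested this held for 14.5%, 7.6% higher and 6.85% lower. Changes within litters m1 and m2 had the same sign for Epha3, Epha4, Epha5, Epha7, Epha8, Epha10 and Efna5, and opposite signs for Epha6 (-0.15 and 0.60), Efna2 (0.05 and -0.0076) and Efna3 (-0.06 and 0.0086). A limma test of the difference between the litters' changes called 0 of the 10 (0 at an unadjusted p under 0.05, and 1 gene of the whole table). With 1 library per genotype in litter m2 that test had 2 residual degrees of freedom, so it says little on whether the litters differed.

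**Figure D3:**
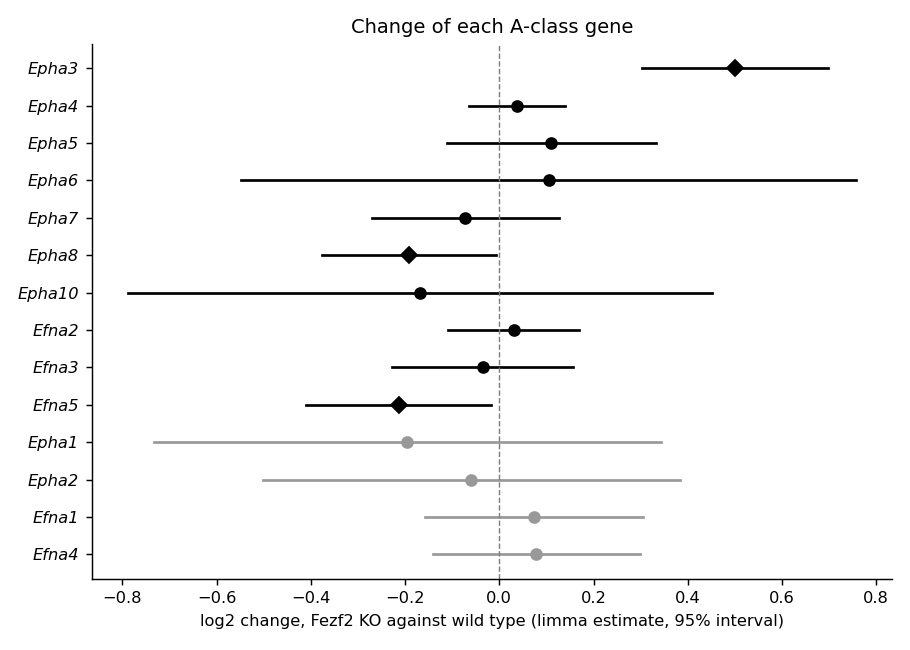
Log2 change (x axis, Fezf2 KO against wild type, limma on log2(value + 1)) with 95% intervals for the 10 genes in black and the 4 remaining A-class genes in grey. Diamonds mark genes whose libraries do not overlap between genotypes. The interval of Epha3 (0.30 to 0.70) lies farthest from 0, and those of Epha6 and Epha10 are the widest.

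The deposited values favour long transcripts, so levels were compared between genes per kilobase of the longest GENCODE transcript. On this scale the ligands Efna2 (1790 ± 88.7 normalised reads per kilobase, SD, n = 3) and Efna3 (1497 ± 108) were the highest of the 10 in wild type cortex, followed by the receptor Epha4 (1081 ± 32.5). Efna2 lay above the ranges of the other two. The place of Efna3 above Epha4 depends on the reads it may share with its antisense transcript: with those taken off (an alternative chosen after seeing the data), Efna3 was at 1051 ± 69.9, and its range of 995 to 1129 overlapped that of Epha4, 1045 to 1108. Epha8 (605 ± 7.72) and Epha5 (544 ± 67.8) came next with touching ranges, then Epha3 (405 ± 30.3) and Epha7 (385 ± 25.7), whose ranges overlapped, then Efna5 (260 ± 13.8). Epha6 (40.5 ± 13.5) and Epha10 (13.6 ± 2.28) were far lower. In Fezf2 KO cortex Epha3 was at 574 ± 55.7, within the ranges of Epha5 (585 ± 42.7) and Epha8 (531 ± 57.9). With the union of all exons as the length, Epha5 (395) and Epha3 (364) were lower in wild type and their ranges overlapped.

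**Figure D4:**
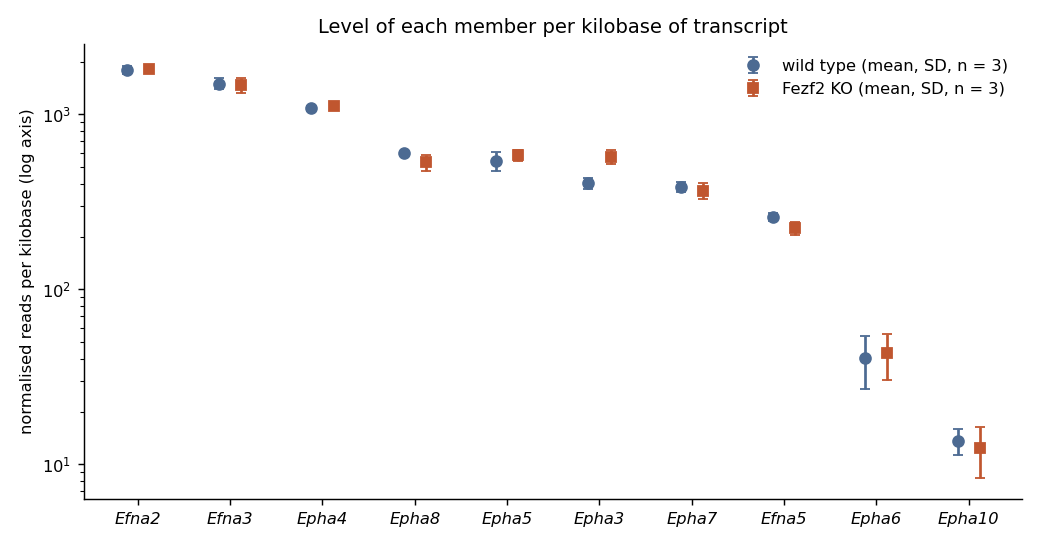
Normalised reads per kilobase of the longest transcript (y axis, log scale) for each gene, as mean and SD of 3 wild type (circles) and 3 Fezf2 KO (squares) libraries, ordered by the wild type mean. Epha3 is at 405 in wild type and 574 in Fezf2 KO, and Efna2, Efna3 and Epha4 are the 3 highest in both genotypes.

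Summed over the 7 receptors the level per kilobase was 3074 ± 150 in wild type and 3223 ± 129 in Fezf2 KO, and over the 3 ligands it was 3547 ± 210 and 3516 ± 224. Both sums overlapped between genotypes, and without the antisense reads the ligand sum was 3101 ± 171 and 3072 ± 185. The ligand sum leaves out Efna4 (734 ± 71.7 per kilobase in wild type, 775 ± 68.8 in Fezf2 KO) and Efna1 (156 ± 11.5 and 164 ± 3.29). The receptor sum leaves out Epha2 (27.4 ± 2.39 and 26.7 ± 6.83) and Epha1 (4.87 ± 0.510 and 4.21 ± 0.379). Sums and shares thus describe the listed members and not all A-class genes. Shares of the same sum are tied, since a gain in any member lowers the shares of the others. Shifts in them are therefore not separate changes. Within the receptor sum, Epha3 made up 13.2% ± 0.347 in wild type and 17.8% ± 1.42 in Fezf2 KO, while Epha8 made up 19.7% ± 1.19 and 16.5% ± 1.73. Epha4 held 35.2% ± 0.685 and 34.5% ± 1.76. Within the ligand sum, Efna5 made up 7.34% ± 0.158 and 6.40% ± 0.548, and Efna2 50.5% ± 0.534 and 52.0% ± 1.98. Without the antisense reads these were 8.39% ± 0.152 and 7.32% ± 0.670 for Efna5, and 57.7% ± 0.502 and 59.5% ± 1.76 for Efna2.

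Markers of other tissue and of cortical layers also varied between libraries. In wild type 1, 2 and 3 the striatal rows had a mean centred log2 value of 0.75, 0.46 and 0.30, whereas Fezf2 KO 1, 2 and 3 had -1.24, 0.28 and -0.55. By limma 0 of 14 striatal rows changed (12 lower at an unadjusted p under 0.05, where 4.37% of all genes were). When limma also took this mean as a term, Epha3 had a log2 change of 0.47 (SE 0.132, limma adjusted p = 0.334), against 0.50 without it. That of Epha8 went from -0.19 to -0.0077 and that of Efna5 from -0.21 to -0.14. Every wild type striatal mean lay above every Fezf2 KO mean, so that fit cannot tell striatal level and genotype apart. The part of striatal tissue in these values was not tested.

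**Figure D5:**
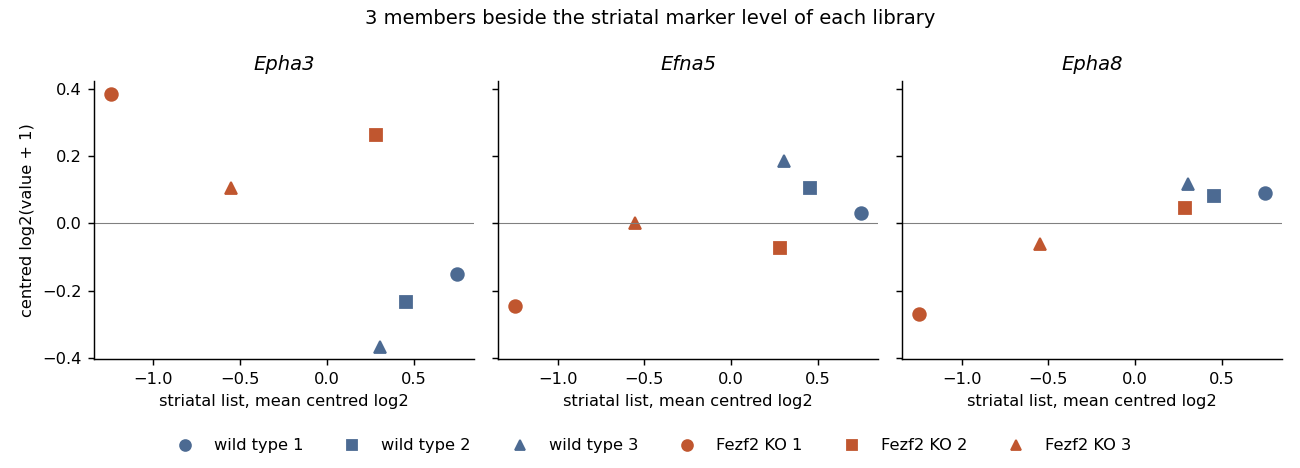
Centred log2(value + 1) of Epha3, Efna5 and Epha8 (y axis) against the mean centred log2 value of the striatal rows (x axis) in each library. Striatal levels run from 0.30 to 0.75 in wild type and from -1.24 to 0.28 in Fezf2 KO, and the Fezf2 KO points lie above all wild type points for Epha3 and below them for Efna5 and Epha8.

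Callosal and upper-layer rows, from neurons that connect the hemispheres, summed to 159947 to 164342 in wild type and 171837 to 186689 in Fezf2 KO, so the sum was higher in each Fezf2 KO library. Row by row, 10 of the 14 were fitted higher and 4 lower, and by limma 1 rose (Mdga1) and 0 fell. Layer 6 corticothalamic genes (8) summed to 48555 to 52148 and 36813 to 40316. Of these, 7 were fitted lower and 1 higher, and 5 were lower by limma. Layer 5 subcerebral genes (10 rows), a sum that includes Fezf2, came to 43960 to 46720 and 30270 to 35305. All 10 were fitted lower (median log2 change -0.41), 6 of them at an unadjusted limma p under 0.05 (4.37% of all genes). By limma's adjusted p 1 was lower (Fezf2 itself). Among all genes tested limma called 0.712%. Thalamic rows (7) summed to 2110 to 2259 and 2383 to 2755, with 1 higher by limma (Slc17a6), although 4 of the 7 were fitted lower and the median log2 change was -0.03. The part of these cell classes in the values of Epha3, Epha8 and Efna5 was not tested. Wild type 1 had the highest meningeal sum and Fezf2 KO 1 the highest choroid plexus sum. Without these libraries (an alternative chosen after seeing the data), the log2 change of Epha3 was 0.48 (limma adjusted p = 0.119).

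The genes whose library pattern was most like that of Epha3 were Ltbp1, Lsp1 and Rbm20, by the root mean square difference of centred log2 values over the 6 libraries. That difference was 0.049 for Ltbp1, a binding protein of latent TGF-beta, 0.062 for Lsp1, an actin-binding protein, and 0.075 for Rbm20, a splicing factor. The median over 12775 genes was 0.287. These 3 were picked as the smallest differences, so lying under the median follows from the choice. Ltbp1 read 175 ± 6.59 in wild type and 238 ± 18.5 in Fezf2 KO (SD, n = 3), and by limma none of the 3 passed (adjusted p = 0.184, 0.299 and 0.280).

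The remaining A-class genes gave similar results, with 0 of 4 changed by limma and 0 at an unadjusted p under 0.05 (0.712% and 9.03% of all genes). Efna4 read 1071 to 1298 in wild type and 1121 to 1338 in Fezf2 KO (log2 change 0.08), and Efna1 read 236 to 273 and 261 to 272 (0.07). Epha2 read 96.3 to 113 and 83.9 to 135 (-0.06). Epha1, at 14.0 to 17.2 and 12.4 to 14.6 (-0.19), was the scarcest A-class gene.

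Of 8 B-class receptors and ligands, which EphA4 and ephrin-A5 can also engage, 1 fell and 0 rose by limma. Among all genes tested 0.712% changed. The gene that fell was the receptor Ephb1, at 8159 ± 622 in wild type and 4596 ± 544 in Fezf2 KO (log2 change -0.83, limma adjusted p = 0.00594). Among 7 genes of ephrin-A co-receptors and ectodomain cleavage 1 fell, Ngfr, the neurotrophin receptor that serves ephrin-As as a partner in reverse signalling in retinal axons. It read 1256 ± 214 in wild type and 151 ± 17.3 in Fezf2 KO (log2 change -3.04, limma adjusted p = 6.02e-05). The co-receptor genes Ntrk2 and Ret and the protease family genes Adam10, Adam12 and Adam22 did not pass.

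Genes of the forward signalling pathway numbered 30, and limma called 0 of them (4 higher and 1 lower at an unadjusted p under 0.05). Among all genes tested limma called 0.712%, and 4.66% were higher and 4.37% lower at that unadjusted p. The closest were Pik3r1, a regulatory subunit of PI3 kinase, at 7293 ± 248 and 8506 ± 156 (log2 change 0.22, limma adjusted p = 0.0853), and the adaptor Nck1, at 134 to 157 and 104 to 122 (-0.42, limma adjusted p = 0.324). Of 12 tested genes of cortical area patterning, the factors that give cortical regions their identity, 1 rose and 0 fell. The gene was Sp8, a zinc finger transcription factor, at 1087 ± 73.5 and 1465 ± 58.8 (log2 change 0.43, limma adjusted p = 0.0457), and its adjusted p lay between 0.0652 and 0.167 when any 1 library was left out. The median log2 changes of these lists were 0.11 (B-class), 0.0083 (co-receptors and cleavage), 0.03 (forward signalling) and 0.15 (area patterning), beside 0.0025 over all genes.

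Promoter windows of 250 bases before the RefSeq start (GRCm38.p6, used for sequence only, since the table was made on mm9) were found for 10 of the 10 genes. Those of Epha3 and Efna5, the receptor with the highest and the ligand with the lowest fitted change, are shown because they are a binding pair with unlike base composition. Capitals mark GC boxes, GGGCGG on either strand. Letters run 5′ to 3′ on the gene's strand, which is the minus strand for both, over chr16:63864176-63864425 for Epha3 and chr17:62881318-62881567 for Efna5.
Epha3: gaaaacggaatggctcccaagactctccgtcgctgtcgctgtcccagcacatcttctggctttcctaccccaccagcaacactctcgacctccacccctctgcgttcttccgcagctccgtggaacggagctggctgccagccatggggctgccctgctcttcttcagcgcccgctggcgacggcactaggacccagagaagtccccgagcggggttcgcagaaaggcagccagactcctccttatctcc
Efna5: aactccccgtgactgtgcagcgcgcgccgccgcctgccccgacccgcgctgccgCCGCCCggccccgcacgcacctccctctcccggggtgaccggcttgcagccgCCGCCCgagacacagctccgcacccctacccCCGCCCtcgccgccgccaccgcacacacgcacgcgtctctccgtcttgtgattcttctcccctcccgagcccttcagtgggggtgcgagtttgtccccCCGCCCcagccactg
The Epha3 window held 16 CG pairs, 62.8% G or C and 0 GC boxes, and the Efna5 window held 32 CG pairs, 74.8% G or C and 4 GC boxes. A GC box stood in at least 1 window of 9 of the 10 genes, Epha3 being the exception, and in 32.7% of all 32851 windows of this length. The CCAAT box (CCAAT on either strand) was in windows of 5 of the 10 and in 33.8% of all windows, and the TATA box TATAAA in 0 of the 10 and in 12.4% of all windows. Counts of the 10 are by gene, over 12 windows, and the shares of all windows are by window. Windows of the 10 genes held 14 to 46 CG pairs, against a median of 6 over all windows. The shares were not matched for CG content, so they do not show a trait of these genes. A match to any of these motifs is a description of the sequence only.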

How the data were processed

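The authors deposited 1 table of normalised counts, the signal used here, with 6 library columns and 23016 rows (19192 clustered known genes, 3819 assembled transcripts). Bowtie, STAR and DESeq were used with the mouse build mm9, per the submitters' processing notes, which give no versions. From the values, each library's signal was reads divided by 1 size factor: 100% of values were whole multiples of the smallest step within 0.006, which gave back whole reads. Libraries were Illumina TruSeq, 1 per brain, per the labels' protocols.

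Members, lists and tests were chosen with earlier results of these data known. A gene entered the test if 3 or more libraries had a value of 10 or more (17557 genes, all 10 members among them). The test was limma 3.58.1 in R 4.3.3 on log2(value + 1), with a trend on the variance and genotype as the single term. That scale understates the change of genes with few reads. All adjusted p-values are Benjamini-Hochberg over all genes tested. Count tests on the recovered reads used edgeR 4.0.16 (quasi-likelihood) and DESeq2 1.42.0, and the steps were tested on simulated data. Labels give litter, so litter served as a block. Deviations from genotype means correlated at r of -0.177, 0.262, 0.231, -0.0731 and 0.263 over the 5 same-litter pairs. Over the other 4 pairs r lay between -0.226 and -0.0428 (13582 genes, which are not independent replicates). Centring the 3 libraries of each genotype ties these values to each other, so they do not test for a litter effect. Chi-square per degree of freedom between pairs of libraries was 8.39 to 31.1, so no pair agreed within sampling noise. Transcript lengths came from GENCODE M21 (GRCm38). Named genes were the members, the other A-class genes, called members of each pathway list (up to 4, or the 2 with the smallest p) and the 3 genes most like the member with the smallest p. Sequence variants and isoforms were not analysed here, and the values of some list genes are not reported here.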

Additional observations from a re-analysis of the deposited data

How the results depend on the processing

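Epha3 was called by DESeq2 (log2 change 0.50) and by limma with litter as a replicate block (0.50), so that 1 member was called there and 0 elsewhere, while leaving out each library gave 0.43 to 0.57. Epha3, Epha4, Epha5, Epha8 and Efna5 kept their direction under all 15 alternatives, and the other 5 members, none called, did not. Of the member values under these alternatives, 136 kept direction and side of the threshold, 2 gained a call and 12 turned sign. Epha6 was -0.145 in litter m1 alone. With 1 library left out, Epha6 lay between -0.155 and 0.341, Epha7 between -0.141 and 0.00745, Epha10 between -0.401 and 0.0568, Efna3 between -0.116 and 0.0232 and Epha2 between -0.255 and 0.0831. In litter m1 alone Epha2 was 0.0091. With the striatal mean as a covariate Epha7 was 0.0366, Epha10 0.458, Efna2 -0.0723, Epha2 0.293 and Efna4 -0.124. Without wild type 1 and Fezf2 KO 1 together Epha10 was 0.187, Efna2 -0.0134, Epha2 0.0305 and Efna4 -0.0419. The cause of these turns was not tested.

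Over all genes limma called 125 (71 higher, 54 lower), DESeq2 403 (242 and 161), litter m1 alone 29 (12 and 17), the striatal covariate 38 (18 and 20), and the fit without wild type 1 and Fezf2 KO 1 57 (28 and 29). Leaving out each library gave 61 to 119 genes, 21 to 55 of them higher and 37 to 73 lower. Among the wild type libraries, dropping replicate 2 gave 77 (40 higher) and dropping replicate 3 gave 74 (34 higher). Among the Fezf2 KO libraries, dropping replicate 2 gave 119 (46 higher) and dropping replicate 3 gave 61 (21 higher). Fewer libraries alone can lower such counts. With a pseudocount of 0.5 the test of litter differences again called 0 members. Counting error alone gives a coefficient of variation of 23.7% for Epha1 and 16.1% for Epha10 in wild type. That is close to or above the observed 10.5% and 16.8%, so depth limits both there. In Fezf2 KO, counting error gives 25.1% for Epha1 against 8.99% observed. For Epha10 it gives 17.0% there against 32.5% observed, so spread between libraries adds to counting error. For Epha6 in wild type, counting error gives 7.69% against 33.4% observed, so spread between libraries limits that gene.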

Other observations

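Epha3 and Efna5 had opposite orders across the 6 libraries, a pattern chosen after its values were seen and given with no test. From high to low, Epha3 ran Fezf2 KO 1, 2 and 3, then wild type 1, 2 and 3, and Efna5 ran the other way. Per kilobase of transcript, Epha3 was at 1.76, 1.58 and 1.36 times Efna5 in wild type 1, 2 and 3, and at 3.09, 2.51 and 2.14 times in Fezf2 KO 1, 2 and 3. Within both genotypes the library of litter m2 had the lowest ratio. The 3 summed ligands were, per kilobase, at 1.06, 1.12 and 1.30 times the 7 summed receptors in wild type 1, 2 and 3. In Fezf2 KO 1, 2 and 3 this ratio was 1.08, 0.990 and 1.22. It overlapped between genotypes and was highest in litter m2 in each. Efna1 and Efna4 (156 and 734 per kilobase in wild type) are not in it, so it is not the ratio for all ephrin-A ligands.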
